A study of Mus musculus with 5 samples.

Results

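Between genes, 1347 BRG1 peaks of oxLDL-treated wild-type macrophages lay near a protein-coding gene without touching it. They make up 13.6% of the 9907 peaks of that library, and the 4 peak lists of the series together hold 14951. A peak belonged to this group when it was narrower than 1000 bp and its summit, the base with the highest signal, lay outside every RefSeq protein-coding gene, more than 1 kb and at most 20 kb from the nearest gene end. Chromosome 9 before 3.1 Mb was left out, which removed 0 peaks in this range, and 67 further peaks in the range were too wide. Each peak had to pass the calling limit of the oxLDL WT list, and none had to pass one in another library. Within that list the choice used position and width, with no further limit on height.

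The peaks come from chromatin immunoprecipitation and sequencing (ChIP-seq) of BRG1 in primary macrophages grown from mouse bone marrow. The 4 BRG1 libraries are wild type (WT) and Baf60a knockout (KO), each untreated or given oxidised low-density lipoprotein (oxLDL), with 1 library a group, and an input library was made without antibody. The dose and duration of oxLDL, the sex, age and number of the mice, and whether the knockout covers the whole body or myeloid cells alone are details not given in sources used here. With 1 library a group there is no replicate check, so no difference between libraries below carries a test, and the values describe these libraries.

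BRG1, encoded by Smarca4, is an ATPase that powers SWI/SNF complexes, which slide or evict nucleosomes and so open DNA to other proteins. BAF60a, the product of Smarcd1, is an accessory subunit through which such complexes contact transcription factors. Away from promoters, SWI/SNF is known to act at enhancers, and in macrophages many enhancers are first bound by lineage factors such as PU.1 and are joined after a stimulus by factors such as AP-1 and NF-kB. The nearest gene of a peak is a matter of position and does not show which gene the peak acts on.

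The libraries were of like depth as far as peak lists show it. The lowest local background of a list, a level set by the whole library, was 2.70 to 3.84 fragments, and a median peak rested on 16 to 22 fragments. List lengths were far apart, with 237 untreated WT peaks and 139 untreated KO peaks beside 9907 under oxLDL in WT and 4668 under oxLDL in KO. The part of depth in these lengths was not tested. The labelled cell type was set against markers. Of 30 macrophage lineage genes, 8 were nearest to at least 1 of the intergenic peaks: Adgre1, Cebpa, Itgam, Lyz2, Mertk, Mpeg1, Trem2 and Tyrobp. Others of that list, such as Spi1, Csf1r and Cd68, were not. At a −log10 q of 5 or more the count was 2. Of 120 genes that mark hepatocytes, neurons, stroma, lymphocytes, neutrophils or erythroid and megakaryocytic cells, 4 were a nearest gene. The lists were drawn up with earlier results of these libraries known, so the counts are no independent check of the cells. Peaks do not measure expression, so this bears on the cells only through where BRG1 was bound.

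Some of these peaks lay on RNA genes that make no protein, and 5 of them shared bases with a miRNA hairpin. The mature sequences of 3 hairpins are shown because 1 of them, Mir142, is a well-known miRNA gene of blood cells, and Mirlet7i and Mir7671 lay under peaks found in both oxLDL libraries. Sequences are from RefSeq on GRCm38.p6, the assembly of mm10, written 5′ to 3′, with the seed (bases 2 to 8) in capitals.
mmu-miR-142a-5p: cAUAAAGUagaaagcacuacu
mmu-miR-142a-3p: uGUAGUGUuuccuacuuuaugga
mmu-let-7i-5p: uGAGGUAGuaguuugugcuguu
mmu-let-7i-3p: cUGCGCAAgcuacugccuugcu
mmu-miR-7671-5p: aGGCUCCGcucuggcuagcuucc
mmu-miR-7671-3p: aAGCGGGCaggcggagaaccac
The 6 seeds differ from each other. Mir142 (chr11:87756864-87756927, plus strand) lay under an oxLDL WT peak of fold enrichment 3.15 whose summit was base 87756861. Fold enrichment here is the authors' own value for a peak over its local background. That peak was 1.33 kb from Tspoap1, had no counterpart in the other 3 lists, and the nearest oxLDL KO summit was 230 kb away. Mirlet7i, a member of the let-7 family (chr10:122985640-122985724, minus strand), lay under a peak near Mon2 with a fold enrichment of 3.55 in oxLDL WT beside 3.79 in oxLDL KO. Mir7671 (chr11:53763597-53763654, minus strand) lay under a peak whose summit was 6.18 kb upstream of Irf1, a transcription factor of the interferon response, with a fold enrichment of 4.41 in oxLDL WT beside 3.85 in oxLDL KO. The summits of that pair of peaks were 0.00400 kb apart.

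Another 28 peaks shared bases with a RefSeq promoter window, the 300 bp from 250 bp before to 50 bp after an annotated start, and all 28 windows belonged to lncRNA genes, whose long transcripts make no protein. In 12 of them the summit was inside the window. The 4 windows below were chosen after their values had been seen, to show peaks whose summit base can be read in its sequence. The windows were taken with and without matches to 2 macrophage motifs. Capitals mark matches to TGANTCA, the letters bound by AP-1, and to AGGAAGT, a core bound by PU.1, each searched on both strands.
Gm9530: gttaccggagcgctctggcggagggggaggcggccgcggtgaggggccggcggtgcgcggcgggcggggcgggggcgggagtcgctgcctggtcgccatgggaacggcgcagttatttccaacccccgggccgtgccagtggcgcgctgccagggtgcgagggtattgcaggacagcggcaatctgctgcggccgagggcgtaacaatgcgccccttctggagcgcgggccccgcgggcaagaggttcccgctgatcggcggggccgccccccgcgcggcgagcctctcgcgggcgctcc
F730311O21Rik: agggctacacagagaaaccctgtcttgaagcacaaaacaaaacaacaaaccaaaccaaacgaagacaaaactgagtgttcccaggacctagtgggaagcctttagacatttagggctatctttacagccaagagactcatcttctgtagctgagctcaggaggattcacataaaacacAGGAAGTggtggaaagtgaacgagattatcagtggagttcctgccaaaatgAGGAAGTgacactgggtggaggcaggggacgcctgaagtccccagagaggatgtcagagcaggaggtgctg
Gm38933: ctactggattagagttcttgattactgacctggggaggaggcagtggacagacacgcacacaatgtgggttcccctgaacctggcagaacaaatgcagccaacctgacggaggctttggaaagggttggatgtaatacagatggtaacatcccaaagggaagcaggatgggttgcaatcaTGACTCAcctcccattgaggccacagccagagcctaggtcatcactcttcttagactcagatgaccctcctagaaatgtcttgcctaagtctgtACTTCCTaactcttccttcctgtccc
5033406O09Rik: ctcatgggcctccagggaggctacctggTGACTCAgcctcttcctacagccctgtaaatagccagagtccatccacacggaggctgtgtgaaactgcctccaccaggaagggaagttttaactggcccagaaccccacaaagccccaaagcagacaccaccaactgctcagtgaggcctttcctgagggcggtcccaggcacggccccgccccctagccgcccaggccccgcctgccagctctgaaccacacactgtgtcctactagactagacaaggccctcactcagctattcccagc
Gm9530 (chr1:155083215-155083514, minus strand) had the summit at base 293 of its window, 13.1 kb downstream of Ier5, an immediate early gene, with a fold enrichment of 5.04 in oxLDL WT beside 3.62 in oxLDL KO, and its window held no match. F730311O21Rik (chr1:132341667-132341966, plus strand), near the kinase gene Nuak2, had the summit at base 28, a fold enrichment of 4.62 and 2 PU.1 matches. Gm38933 (chr11:83604766-83605065, minus strand) had the summit at base 46 and a fold enrichment of 3.99, and its nearest protein-coding gene was the chemokine gene Ccl6. Its window held 1 match to each motif. The peak covered only the first 115 bp of that window, so both matches, at bases 181 and 275, lay outside the peak. In 5033406O09Rik (chr12:111944433-111944732, minus strand), near Atp5mpl, the summit was at base 23, the fold enrichment was 3.36 and AP-1 matched once. The last 3 peaks had no oxLDL KO counterpart.

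Over the 28 windows, PU.1 matched in 9, or 32.1% (Wilson 95% interval 17.9 to 50.7), against 9.35% of the 32817 promoter windows in the table. In the 11587 windows of non-coding genes the PU.1 share was 9.87%. For AP-1 the count was 4, or 14.3% (5.70 to 31.5), against 7.81% of all windows and 9.31% of non-coding ones. The E-box CACGTG, read by MiT/TFE and MYC family factors, matched in 0 of 28, which allows a share of up to 10.7%. Its share was 7.15% of all windows and 5.89% of non-coding ones. The AP-1 interval and the E-box limit contain both of these background shares. A match describes letters and is not a bound site, and the windows sit at annotated starts rather than at summits. Matches were counted over whole windows, including bases outside the peak. The PU.1 matches of Gm40723, Gm34793, Gm38933 and Gm40802 lay outside the peak. So did the AP-1 matches of Gm38933, Gm51550 and LOC115489947. These shares therefore describe the windows and not the sequence under the peaks. Intervals and limits of a count of 0, here and below, cover counting error only, and neighbouring peaks are not independent of each other.

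The group held 14.4% of the oxLDL WT peaks that met the same width and chromosome limits (1347 of 9341, interval 13.7 to 15.1), and the sequence in the same distance range made up 13.8% of the span searched. Peaks were thus about as dense here, at 4.02 per Mb, as inside genes, at 4.11 per Mb. Within 1 kb of a gene end the density was 40.4 per Mb, and beyond 20 kb it was 1.01 per Mb. In oxLDL KO the same rule selected 545 of 4583 peaks, or 11.9% (11.0 to 12.9), at 1.62 per Mb. The untreated lists gave 35 of 205 peaks in WT, or 17.1% (12.5 to 22.8), and 12 of 109 in KO, or 11.0% (6.41 to 18.3).

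Density fell with distance from the gene without a step at 20 kb. In oxLDL WT it was 6.72 peaks per Mb at 1 to 2 kb, 4.24 at 2 to 5 kb, 3.90 at 5 to 10 kb and 3.36 at 10 to 20 kb. In oxLDL KO the 4 values were 2.17, 1.76, 1.59 and 1.45. Farther out, at 20 to 50 kb, the densities were 2.65 and 1.03, so the group is a stretch of a continuous slope between gene ends and open intergenic sequence.

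**Figure D1:**
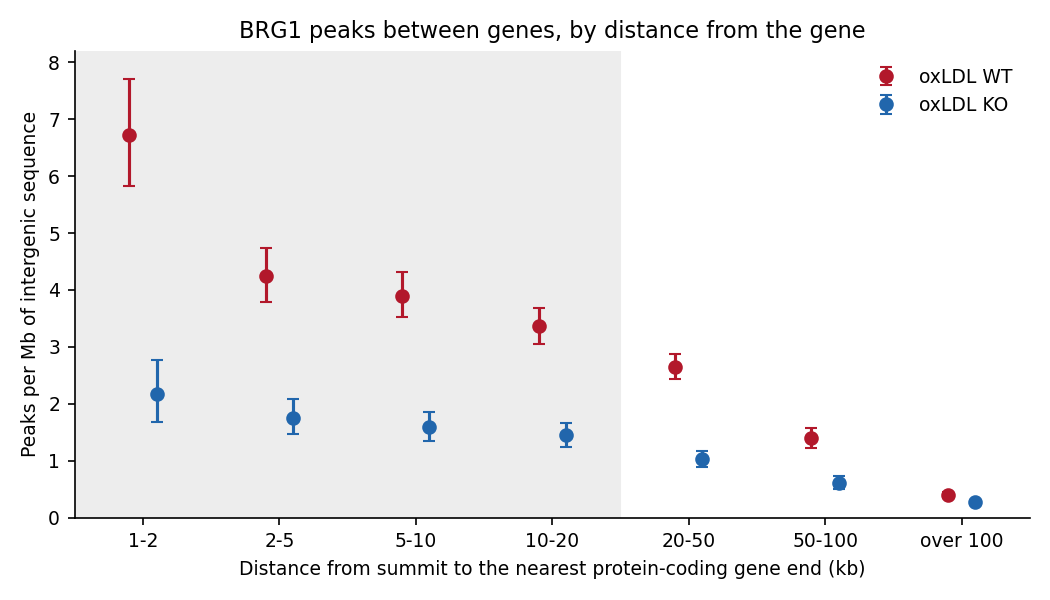
Peaks per Mb of intergenic sequence (y axis) in ranges of distance from summit to nearest protein-coding gene end (x axis, kb) for the oxLDL WT and oxLDL KO lists, with exact Poisson 95% intervals as bars; grey marks the 1 to 20 kb range. Density in oxLDL WT was 6.72 at 1 to 2 kb and 3.36 at 10 to 20 kb, and in oxLDL KO 2.17 and 1.45.

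Peaks lay more often before the start of their nearest gene than after its end. Where the strand of the nearest gene was known, 702 peaks lay upstream of the 5′ end, at 4.91 per Mb (exact Poisson 95% interval 4.55 to 5.29), and 379 lay downstream of the 3′ end, at a density with an interval of 2.80 to 3.43 per Mb. The upstream side thus held 64.9% of them (62.0 to 67.7) but 53.9% of the sequence. Overlap with oxLDL KO was 18.9% on the upstream side and 19.3% on the downstream side, with intervals that overlap.

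Most of these peaks were narrow and modest. Fold enrichment in oxLDL WT ran from 1.88 to 9.24 with a median of 3.75 and quartiles of 3.34 and 4.20. The width ran from 235 to 993 bp with a median of 346 bp. The pileup, the number of fragments over the summit recovered from the fold enrichment and p-value, ran from 12 to 81 with a median of 17. Gene-end peaks of the same library had a median fold enrichment of 3.63, peaks inside genes 3.72 and peaks beyond 20 kb 3.57, so the groups were alike in height. Because pileups are whole numbers over a common background, many peaks share a fold enrichment exactly.

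Under oxLDL, 264 of the 1347 peaks shared at least 1 bp with a peak of the KO library. This is 19.6% (17.6 to 21.8), beside 24.8% of all 9341 narrow oxLDL WT peaks. Gene-end peaks were overlapped in 32.4% (30.8 to 34.1), peaks inside genes in 22.5% (21.2 to 23.8) and peaks beyond 20 kb in 18.7% (16.5 to 21.2). With each class weighted to the fold enrichments of the near-gene intergenic peaks, the shares were 33.3% at gene ends, 22.9% inside genes and 19.6% beyond 20 kb, the last equal to that of the near-gene intergenic peaks. The order turned when both lists were held to a −log10 q of 5 or more, where the near-gene intergenic peaks were overlapped in 16.6% (13.0 to 20.9), gene-end peaks in 14.7% (12.2 to 17.7), peaks inside genes in 14.6% (12.5 to 17.1) and far peaks in 17.6% (13.4 to 22.7), with intervals that overlap. With the oxLDL WT list shortened to the length of the oxLDL KO list the shares were 31.0%, 41.6%, 31.2% and 28.5%, in the same order of classes. The lower overlap of these peaks than of gene-end peaks therefore depends on the threshold, and it was not tested over replicates.

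Overlap rose with the height of the peak. From the lowest to the highest of 5 ranges of fold enrichment it was 7.07%, 12.7%, 12.8%, 24.6% and 42.4% for the intergenic peaks near genes, and 21.3%, 27.2%, 33.3%, 39.3% and 48.6% at gene ends. In the highest range, the interval for the intergenic peaks was 36.5 to 48.5 and that for gene ends was 43.8 to 53.4, which overlap. In the lowest range they were 4.67 to 10.6 and 18.4 to 24.4. The gap between the classes was therefore wide among low peaks and not resolved among high ones.

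**Figure D2:**
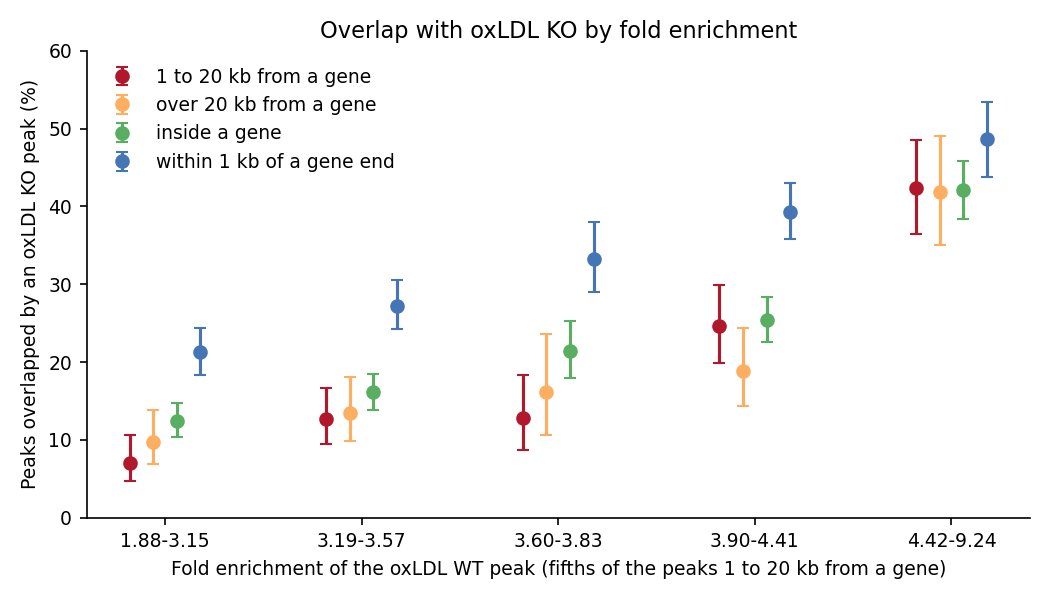
Share of oxLDL WT peaks that share at least 1 bp with an oxLDL KO peak (y axis, %) in 5 ranges of oxLDL WT fold enrichment (x axis) for 4 classes of position, with Wilson 95% intervals as bars. For peaks 1 to 20 kb from a gene the share was 7.07% in the lowest range and 42.4% in the highest, and for gene-end peaks it was 21.3% and 48.6%.

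The 264 overlapped peaks were taller and wider in oxLDL WT than the other 1083, with a median fold enrichment of 4.38 against 3.57, a median width of 460 bp against 328 bp and a median pileup of 20 against 17. Their oxLDL KO counterparts had a median fold enrichment of 4.20, from 2.13 to 7.69. Summits of a pair lay a median of 88.0 bp apart, and 154 of the 264 (58.3%) were within 100 bp. For the 1083 peaks without a counterpart, an oxLDL KO summit lay within 1000 bp of 91 (8.40%), within 5000 bp of 292 (27.0%) and within 20000 bp of 544 (50.2%). The same shares were not counted for other oxLDL WT peaks, so such closeness is not shown to be particular to these peaks. By distance from the gene the overlap was 16.9% at 1 to 2 kb, 21.1% at 2 to 5 kb, 18.3% at 5 to 10 kb and 20.9% at 10 to 20 kb, with intervals that overlap.

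Of the 10 overlapped peaks with the highest fold enrichment in oxLDL WT, the tallest (chr14:77877844-77878442) was 3.37 kb upstream of Dnajc15, a mitochondrial co-chaperone gene, with a fold enrichment of 9.24 in oxLDL WT beside 4.53 in oxLDL KO. At a −log10 q of 5 or more it has no oxLDL KO counterpart, while the other 9 keep theirs. A peak of 9.03 and 7.47 (chr9:7336959-7337212) was 7.31 kb upstream of Mmp12, which encodes macrophage elastase. Downstream of Dusp1, whose product is a phosphatase that turns off MAP kinases, a peak (chr17:26497522-26498263) had values of 7.56 and 6.11 at a distance of 7.92 kb. Acer3, a ceramidase gene, had a peak of 7.56 and 4.75 (chr7:98334181-98334948) 13.2 kb upstream. Next to Apobec1, which encodes the cytidine deaminase that edits Apob mRNA, a peak (chr6:122570554-122571405) reached 7.35 in oxLDL WT beside 7.69 in oxLDL KO. The peak 10.8 kb upstream of Capn2, a calpain protease gene, was 7.14 in oxLDL WT, 7.24 in oxLDL KO and 5.68 in untreated WT (chr1:182528164-182528665). The remaining 4 were near Fem1a (7.56 and 7.24) and Rnf19b (7.51 and 5.09), both genes of ubiquitin ligases, Coil (7.14 and 5.20), which encodes the Cajal body protein coilin, and Atp13a3 (7.14 and 4.75), a P-type ATPase gene. In all 10 pairs the summits were at most 73 bp apart. The ranking used the oxLDL WT value alone. Fold enrichments of different libraries stand side by side as the authors' values and are not a measure of change.

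Of the peaks without an oxLDL KO counterpart, the tallest (chr11:51638048-51638404) was 2.31 kb upstream of Rmnd5b, a gene of a ubiquitin ligase complex, at a fold enrichment of 8.64, and the nearest oxLDL KO summit was 12.8 kb away. Peaks of 7.14 lay 2.36 kb upstream of Mknk2 (chr10:80678438-80678775), a kinase gene of the MAP kinase and translation pathway, and 1.92 kb upstream of Ppt2 (chr17:34639824-34640191), a thioesterase gene. The Ppt2 peak had a counterpart of 5.13 in untreated WT. At 6.93, the peak 5.17 kb upstream of Pltp (chr2:164862263-164863207) was next to the gene of the phospholipid transfer protein of lipoproteins, with an oxLDL KO summit 4.36 kb away. Spp1, which encodes osteopontin, a secreted protein made by activated macrophages, had a peak of 6.51 8.91 kb upstream (chr5:104426027-104426706), and the nearest oxLDL KO summit was 33.5 kb away. Plpp3, a lipid phosphatase gene, had a peak of 6.72 15.4 kb downstream (chr4:105247798-105248708), with the nearest oxLDL KO summit 90.2 kb away. The other 4 were near Tmem236 (6.72), Enam (6.51), which encodes an enamel protein, Gatad2a (6.51), a gene of the NuRD remodelling complex, and Nid1 (6.30), a basement membrane gene. None of the 10 gained a counterpart when overlap was counted with oxLDL KO peaks extended by 500 bp on each side.

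**Figure D3:**
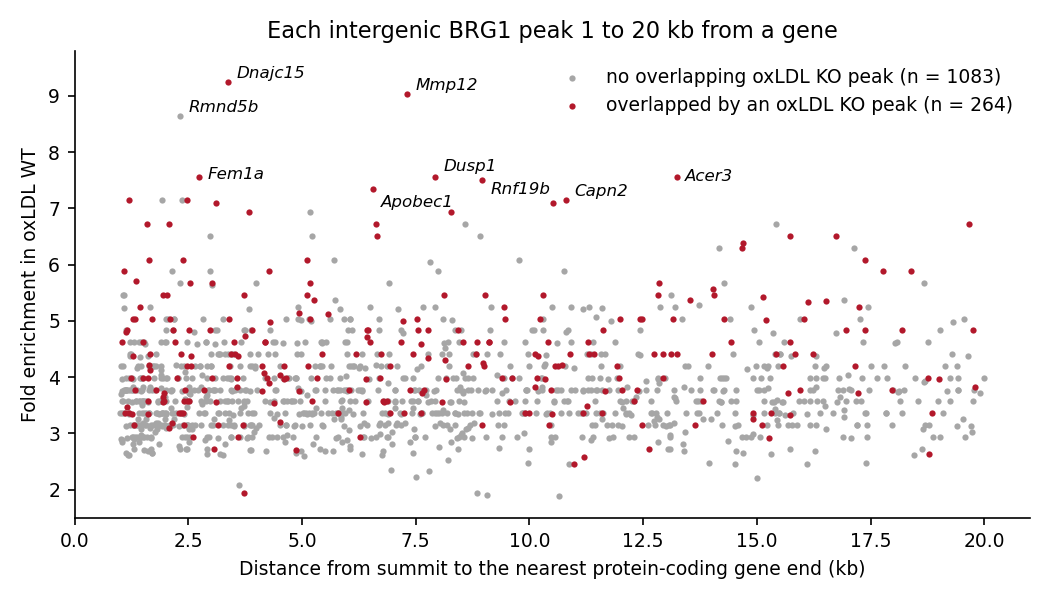
Each of the 1347 peaks by distance of its summit from the nearest protein-coding gene end (x axis, kb) and fold enrichment in oxLDL WT (y axis), with the 264 overlapped by an oxLDL KO peak in red and the other 1083 in grey. Red points are spread over the whole distance range and are more frequent among tall peaks, and Rmnd5b at 8.64 is the tallest grey point.

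The peaks fell to 976 nearest genes, 4.46% of 21887 protein-coding genes, or 5.29% of the 18453 genes that have any sequence in the distance range. Of the 976 genes, 241, or 1.10% of all protein-coding genes, were nearest to an overlapped peak. The same class of oxLDL KO peaks had 460 nearest genes (2.10%), of which 308 were shared, which is 31.6% of the oxLDL WT genes and 67.0% of the oxLDL KO genes. A single peak was assigned to 699 genes, and 277 genes with at least 2 held 648 peaks, or 48.1% of the group.

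Lists of macrophage pathways gave higher shares than all genes did. The 13 pathway lists together hold 392 genes, of which 82 (20.9%, 17.2 to 25.2) were a nearest gene, and the density in the sequence assigned to them was 20.4 peaks per Mb against 4.02 for all genes. The 6 lists for other cell types gave 4 of 120 genes, 3.33% (1.30 to 8.26), at 1.85 per Mb. These lists were drawn up with earlier results of the same libraries known, so their counts describe the lists and are no independent evidence.

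**Figure D4:**
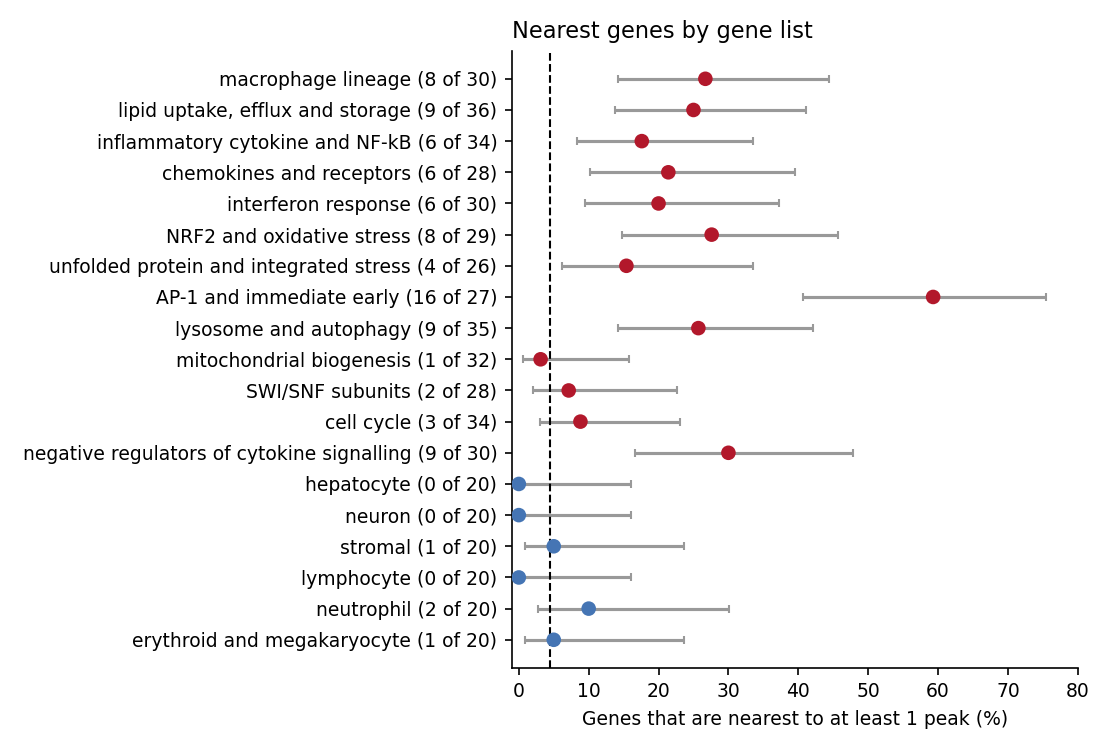
Share of the genes of each list that were the nearest protein-coding gene of at least 1 intergenic peak 1 to 20 kb away in oxLDL WT (x axis, %), with Wilson 95% intervals as bars, pathway lists in red and lists for other cell types in blue. The dashed line is the share of all protein-coding genes, 4.46%, and AP-1 and immediate early genes stand at 59.3%.

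The AP-1 and immediate early genes, which are switched on within minutes of a stimulus, had the highest share of the 19 lists: 16 of 27, or 59.3% (40.7 to 75.5), with 30 peaks at 44.4 per Mb. Of the 30 peaks, 11 were overlapped in oxLDL KO, at 7 of the genes. With a −log10 q of 5 or more the count was 8 of 27, and for peaks 2 to 10 kb away it was 6. Fos, a subunit of AP-1, had 5 peaks: 1 of 4.62 lay 1.42 kb upstream with no oxLDL KO counterpart, and 4 lay 8.99 to 13.5 kb downstream. Of the downstream peaks, 3 were overlapped, with 4.20, 3.75 and 3.99 in oxLDL WT and 3.62, 2.94 and 3.85 in oxLDL KO. The remaining one, at 4.20, had the nearest oxLDL KO summit 0.386 kb away. At Dusp1, 3 of 4 peaks were overlapped, and the one 6.10 kb upstream, was 4.83 in oxLDL WT. Klf6, a zinc finger factor gene, had a peak of 5.88 and 6.34 at 18.4 kb downstream and a peak of 5.04 without counterpart 15.9 kb upstream. Fosb, another AP-1 subunit gene, had a peak 6.74 kb upstream in 3 libraries, at 4.41 in oxLDL WT, 4.75 in oxLDL KO and 5.40 in untreated WT. By contrast, no peak at Nr4a1 (4.79), a nuclear receptor gene, at Atf3 (3 peaks of 3.33 to 4.62), a stress-induced bZIP gene, at Fosl2 (4.17) or at Batf3 (4.14 and 3.57) had a counterpart. Named after their values had been seen, Junb had an overlapped peak 1.78 kb upstream (3.78 and 4.46), while Jun (2.94), Egr1 (2.68) and Nr4a3 (3.99) had 1 peak each and none was overlapped.

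Lysosomal genes had the highest number of peaks per Mb of any list, next to 44.4 for the AP-1 and immediate early genes. No interval was computed for these densities, so the order of the lists is not resolved. Of the 35 lysosome and autophagy genes, 9 (25.7%) were a nearest gene, with 22 peaks at 48.6 per Mb, 6 of them overlapped. Psap encodes prosaposin, the precursor of the saposins that help degrade sphingolipids, and had 5 peaks 3.83 to 17.2 kb upstream. Its 3 overlapped peaks were 6.93, 3.96 and 4.20 in oxLDL WT and 6.11, 4.49 and 3.39 in oxLDL KO, and the other 2, at 3.75 and 3.57, had no counterpart. Ctss, the gene of cathepsin S, had an overlapped peak 5.57 kb upstream at 5.13 and 4.51. Sqstm1, which encodes the autophagy receptor p62, had 3 peaks, of which the one 2.54 kb upstream was overlapped at 5.67 and 3.85. No counterpart was listed for the peaks near Lamp1 (4.62), a lysosomal membrane protein gene, Lgmn (4.41 and 3.78), the legumain protease gene, Gpnmb (4.41, 3.78 and 3.24) and Grn (3.99 and 3.78), the progranulin gene.

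Genes of lipid uptake, efflux and storage gave 9 of 36 genes, with 15 peaks at 20.7 per Mb. Of the 15 peaks, 2 (13.3%) were overlapped, beside 19.6% of the whole group. The overlapped peaks were 9.10 kb from Fabp5, a fatty acid binding protein gene, at 4.62 in oxLDL WT beside 4.30 in oxLDL KO, and 1.96 kb downstream of Npc2, a gene of lysosomal cholesterol export, at 3.72 and 4.30. Lrp1, a lipoprotein receptor gene, had a peak of 4.20 10.8 kb upstream, and Pparg, the gene of a lipid-sensing nuclear receptor, had peaks of 4.20 and 3.36. Abcg1, which encodes a cholesterol efflux transporter, had a peak of 3.99 17.3 kb away. Plin2, a lipid droplet coat gene, had 3 peaks of 2.94 to 3.78. None of the peaks at these 4 genes had an oxLDL KO counterpart.

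Of the 30 macrophage lineage genes, 8 (26.7%) were a nearest gene, with 11 peaks, 4 of them overlapped. With a −log10 q of 5 or more the count was 2 genes, and with the list shortened to the length of the oxLDL KO list it was 3. Tyrobp, an adaptor of activating immune receptors, had a peak 1.12 kb away at 4.80 and 3.85. Adgre1, which encodes F4/80, had a peak 10.9 kb away at 4.41 in oxLDL WT beside 5.88 in oxLDL KO, and another of 4.41 whose nearest oxLDL KO summit was 0.749 kb away. The peak 13.6 kb upstream of the integrin gene Itgam was 3.15 and 2.94, and that 2.61 kb upstream of the lysozyme gene Lyz2 was 2.94 and 3.62. Peaks at Trem2 (3.78), a lipid receptor gene, Cebpa (3.75), a myeloid transcription factor gene, Mpeg1 (3.57) and Mertk (2.62) had no counterpart.

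The negative regulators of cytokine signalling had 9 of 30 genes (30.0%) and 15 peaks, 6 of them overlapped, 3 of these at Dusp1. Zfp36l2, an mRNA decay gene, had a peak of 4.83 and 4.07, Cish, a SOCS family gene, one of 3.96 and 3.82, and Tnip1, an inhibitor of NF-kB signalling, one of 3.57 and 4.30. Socs3, an inhibitor of JAK and STAT signalling, had a peak of 5.04 6.04 kb downstream without counterpart. The NRF2 and oxidative stress list had 8 of 29 genes (27.6%) and 15 peaks, 3 of them overlapped. Besides Sqstm1, which is also in the lysosome list, overlapped peaks lay near the ferritin gene Fth1 (4.41 and 3.85) and the pentose phosphate gene Pgd (3.54 and 3.28). Bach1, a repressor of antioxidant genes, had a peak of 6.09 9.77 kb upstream and one of 3.83, Gpx1 a peak of 5.04 and Cat a peak of 4.62, none with a counterpart. Hmox1, which encodes haem oxygenase 1, had 3 peaks of 3.99, 3.78 and 3.15 at 8.59, 7.04 and 3.49 kb, and the oxLDL KO summit nearest to any of them was 2352 kb away.

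The inflammatory cytokine and NF-kB list had 6 of 34 genes (17.6%) and 10 peaks, of which 1, at Tnip1, was overlapped. Peaks without counterpart lay near Myd88 (3.99), an adaptor of Toll-like receptors, Bcl3 (3.82 and 3.70), Nfkbia (3.60 and 2.99), the NF-kB inhibitor gene, and Tlr2 (3.36). Tlr4, the lipopolysaccharide receptor gene, was named after its values had been seen and had 3 peaks of 3.15, 3.26 and 3.36. Chemokines and receptors had 6 of 28 genes (21.4%) and 9 peaks, of which 1, 7.63 kb downstream of Ccl3, was overlapped at 3.72 and 4.67. Ccrl2 (4.20 and 3.15), Ccl6 (3.99), Cxcl1 (3.78 at both of its peaks) and Ccl24 (3.57) had none. The interferon list had 6 of 30 genes and 9 peaks, with 2 overlapped, near Irf1 and near Ifnar2 (5.88 and 4.30). All 4 interferon receptor genes of the list, Ifnar1, Ifnar2, Ifngr1 and Ifngr2, were a nearest gene.

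The cell cycle, mitochondrial and SWI/SNF lists were nearer to the 4.46% of all genes, which their intervals contain. The unfolded protein and integrated stress list had 4 of 26 genes (15.4%, 6.15 to 33.5), an interval above that share, at 17.4 peaks per Mb. It had an overlapped peak at Xbp1 (4.83 and 4.30), a transcription factor gene of the unfolded protein response. Cell cycle genes gave 3 of 34 (8.82%), with Cdkn1b (3.15 and 3.17) overlapped, and mitochondrial genes 1 of 32 (3.12%), Cox4i1. The SWI/SNF subunits gave 2 of 28 (7.14%). One of these 2 was Smarcd1, the gene of BAF60a itself: a peak of 3.78 (chr15:99715142-99715385) lay 1.23 kb downstream of its 3′ end in oxLDL WT, with no counterpart, and the nearest oxLDL KO summit was 160 kb away. These peaks say nothing on whether Smarcd1 was deleted. The other was Bicra (4.41), a subunit gene of the GBAF form of the complex.

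Of the other cell types, hepatocyte, neuron and lymphocyte markers gave 0 of 20 genes each, which allows a share of up to 15.0%. Stroma gave Lum (2.78), neutrophils Csf3r (3.78) and Prtn3 (3.55 and 3.17), and the erythroid list Tal1 (4.41 and 4.53). Gene families taken by symbol gave shares below the 4.46% of all genes: 7 of 1110 olfactory receptors (0.631%), 1 of 355 vomeronasal receptors (0.282%), 1 of 53 keratins (1.89%), 1 of 101 cytosolic ribosomal protein genes (0.990%), 1 of 91 histone genes (1.10%), and 41 of 1724 genes named as zinc finger proteins or by a Gm number (2.38%). The intervals of keratins (0.334 to 9.94), ribosomal proteins (0.175 to 5.40) and histones (0.194 to 5.96) contain 4.46%. Only those of the olfactory, vomeronasal and zinc finger families lie below it.

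A few genes had rows of peaks. B4galt5, which encodes a galactosyltransferase that makes lactosylceramide, had 8 peaks from 2.13 to 19.3 kb upstream, with fold enrichments of 3.15 to 5.88. Of these, 2 were overlapped: the peak 8.98 kb upstream was 4.26 in oxLDL WT beside 3.62 in oxLDL KO, and the peak 12.5 kb upstream was 3.15 and 4.07. Its tallest peak (5.88, chr2:167350589-167351555) had no counterpart. Azin1, which encodes the antizyme inhibitor of polyamine metabolism, had 5 peaks on both sides of the gene with 1 overlapped (5.36 and 2.99). Il21r, the gene of the interleukin 21 receptor, had 5 peaks 1.49 to 6.32 kb upstream. Of these, 2 were overlapped, at 3.19 and 3.99 in oxLDL WT beside 5.20 in oxLDL KO for both. Pdcd1lg2, which encodes the checkpoint ligand PD-L2, had 5 peaks of 3.15 to 4.41 between 11.4 and 15.5 kb downstream, and 0 were overlapped. Pfpl and F830045P16Rik had 5 peaks each with 1 overlapped, and Plekho2 had 4 with 2 overlapped, the taller 10.5 kb downstream at 7.09. In the group as a whole, 276 peaks (20.5%) had another oxLDL WT summit within 1000 bp, and 713 (52.9%) within 5000 bp. These shares were not counted for the other classes or the whole list, so they are not shown to be particular to this group.

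**Figure D5:**
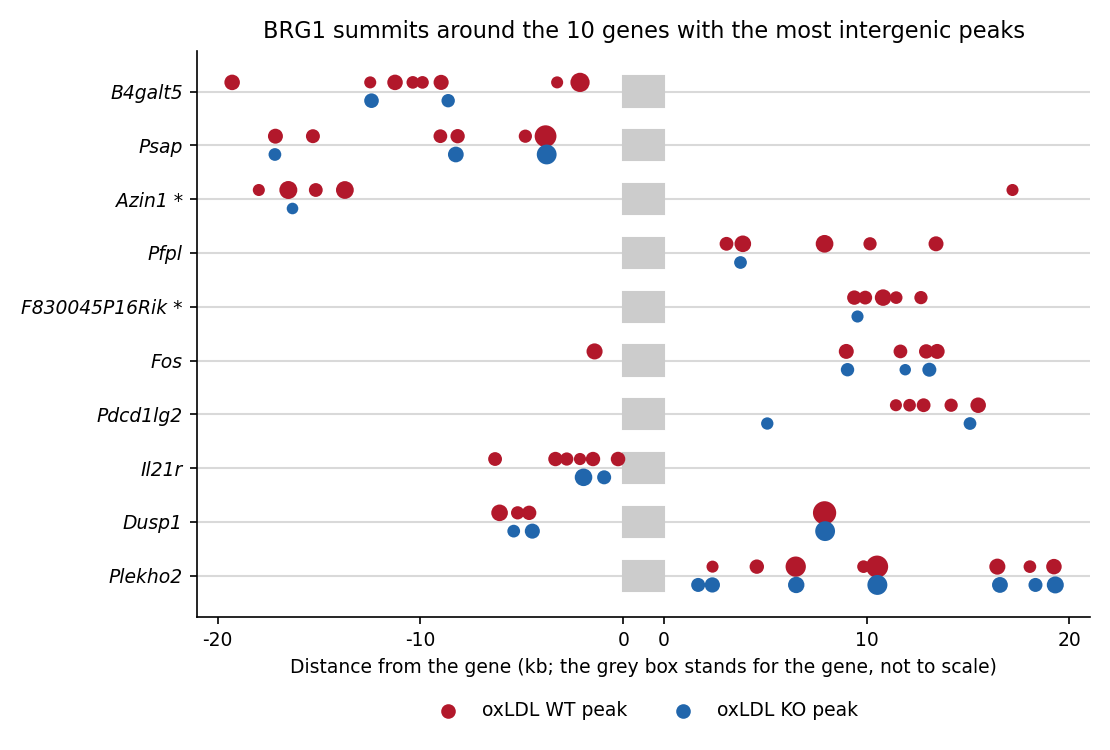
Summits of oxLDL WT peaks (red) and oxLDL KO peaks (blue) around the 10 genes with the most intergenic peaks, by distance from the gene (x axis, kb; the grey box stands for the gene, upstream on the left), with larger dots for higher fold enrichment. All peaks outside the gene within 20 kb are drawn, including wide ones and those nearest to another gene, and an asterisk marks genes without strand in the table, drawn in chromosome order. B4galt5 has 8 red dots upstream and 2 blue ones, and Pdcd1lg2 has 5 red dots downstream. Dusp1 and Plekho2 are among 11 genes tied at 4 intergenic peaks, and the others of these are not drawn.

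Genes with an intergenic peak nearby often had BRG1 on the gene too. Of the 976 nearest genes, 425 (43.5%, 40.5 to 46.7) carried an oxLDL WT peak within 1 kb of an end, against 14.9% of all protein-coding genes. A summit inside the gene was present in 519 (53.2%) against 19.3%, and 565 (57.9%) had a gene-end peak or a summit inside against 21.6%. In oxLDL KO, 254 of the 976 genes (26.0%) had a gene-end peak, against 8.76% of all genes. Of the 735 nearest genes whose intergenic peaks were not overlapped, 363 (49.4%, 45.8 to 53.0) carried an oxLDL KO peak inside or up to 20 kb away, against 21.1% of all genes.

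Of the 1347 peaks, 321 (23.8%) lay in or within 1 kb of a RefSeq non-coding gene or pseudogene, 274 of them at a lncRNA gene. Of the 321, 49 (15.3%) were overlapped in oxLDL KO, and of the other 1026, 215 (21.0%). The tallest at lncRNA genes were the Dusp1 peak at Gm34455, the Rnf19b peak at 1700086P04Rik and the Coil peak at Gm11496, described above. The peak at Gm34649 (chr1:60940861-60941351) at 19673 bp from the T cell co-stimulator gene Icos, was 6.72 in oxLDL WT beside 4.30 in oxLDL KO. At R74862, near the tetraspanin gene Cd81, a peak of 6.30 had no counterpart. The peak at Gm32611 lay 17380 bp from Zc3h12a, which encodes the cytokine mRNA nuclease regnase 1, at 6.09 and 4.03. Gm52627, near Adamtsl4, had a peak of 5.46 in oxLDL WT beside 6.79 in oxLDL KO.

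Few of these sites were listed without oxLDL. In untreated WT 15 of the 1347 (1.11%) had a counterpart, beside 1.27% of all 9341 oxLDL WT peaks, and in untreated KO 2 (0.148%), beside 0.621%. These shares are limited by the short untreated lists. Of the 15, 9 were also overlapped in oxLDL KO. They include the Capn2 and Fosb peaks and the peak 1.09 kb from Tgfb1, the gene of a cytokine that dampens inflammation, at 5.88 in oxLDL WT, 4.53 in oxLDL KO and 4.05 in untreated WT. St3gal5, a ganglioside synthase gene, had 5.04, 3.62 and 4.86 in the same order of libraries, and Mrpl4, a mitochondrial ribosomal protein gene, 4.98, 4.98 and 4.32. The 2 peaks found in untreated KO were near Prss56 (6.09 in oxLDL WT, 4.07 in oxLDL KO and 4.34 in untreated KO) and Speer4c (5.07 in oxLDL WT, 3.50 in untreated WT and 3.19 in untreated KO).

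The peaks next to each limit of the rule are given as a description. At the 1 kb limit the last peak outside was 988 bp from Snrk at a fold enrichment of 3.78, and the first inside was 1005 bp from Mnt at 3.36. At 20 kb the last inside was 20000 bp from Itpr1 at 3.99 and the first outside 20055 bp from Ifnar2 at 4.20. The widest peak inside was 993 bp, near Plxnc1 (4.41), and the narrowest outside 1002 bp, near C77080 (5.37). Of the 3 peaks on each side of the width limit, 1 inside and 3 outside were overlapped in oxLDL KO, and with no width limit 306 of 1414 peaks (21.6%) were overlapped.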

How the data were processed

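Peak lists of the 4 BRG1 libraries were used, and the input library was not analysed here. Per the labels' protocols, chromatin was cut by an enzyme and libraries were sequenced as paired ends. The build mm10 and the tools MACS3, Bowtie2, Trimmomatic 0.33 and bcl2fastq 2.17 stand in the submitters' processing notes; their parameters, their roles and the control of the peak caller are details not given in sources used here. The authors deposited 1 peak list per library, called separately, with a position, a score, a fold enrichment (a ratio to local background), a −log10 p and a −log10 q for each peak, and a summit offset. The lowest −log10 q of the 4 lists was 1.01 to 1.07, and the lowest −log10 p of the oxLDL lists was 3.67 (WT) and 3.96 (KO). The deposited score was not used.

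Distances were measured to both ends of 21887 protein-coding RefSeq genes on GRCm38.p6. Strand came from the RefSeq promoter table, which holds 17492 of them. Densities were counted over chromosomes 1 to 19 from 3 Mb to the last gene end. A gene's density uses the sequence to which it is the nearest gene. Pileup and background were solved from the deposited fold enrichment and p-value with a pseudocount of 1, and came out whole, within 0.05, for 100% of oxLDL WT peaks. Overlap meant at least 1 bp shared. Overlap, distance and pileup steps were tested on simulated data. Python 3.11.15, numpy 2.4.6, pandas 2.3.3, scipy 1.17.1 and matplotlib 3.10.9 were used.

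The members, the 19 gene lists and 6 families by symbol pattern, and the tests were chosen with earlier results of these data known. Named by rule were the 10 tallest overlapped peaks and the 10 tallest peaks without overlap, the 10 genes with the most peaks, the 5 widest peaks and the 5 nearest each distance limit, for each list up to 4 genes with overlapped and up to 4 with only non-overlapped peaks, and the 10 tallest peaks at non-coding genes. A few of these are given by counts alone. Of the 10 genes with the most peaks, Dusp1 and Plekho2 were among 11 genes tied at 4. No peak sequence was read, since no genome was used here, so motifs at summits were not searched. The alternatives tried were stricter q limits, another overlap rule, lists of equal length, other distance limits, no width limit, all RefSeq genes for the distance, and high-background peaks left out.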

Additional observations from a re-analysis of the deposited data

How the results depend on the processing

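The overlap of 19.6% with oxLDL KO was 16.6% at a −log10 q of at least 5 in both lists, 15.7% when summits had to lie within 200 bp, 26.1% with oxLDL KO peaks extended by 500 bp and 31.0% with the oxLDL WT list shortened to the length of the oxLDL KO list. Under the other 8 settings it was 18.2% to 21.7%. The number of peaks, 1347, was 344 at that q limit, 619 at equal length and 701 at 2 to 10 kb, and the number of nearest genes, 976, was 306, 524 and 563. Their share of the list, 14.4%, was 16.0% at that q limit, 7.50% at 2 to 10 kb and 20.5% at 1 to 50 kb. The changes in number follow from the construction of these settings, which keep fewer or more peaks, and the cause of the changes in share was not tested. Macrophage lineage genes numbered 5 when all RefSeq genes set the distance. No paired analysis was possible because each group has 1 library and the labels carry no replicate numbers, and for the same reason no replicate could be left out. A peak missing from the oxLDL KO list was below that list's threshold, where a median listed peak rested on about 17 fragments. This does not show that BRG1 was absent.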

Other observations

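The oxLDL KO list held 545 peaks of the same width and distance, and 237 of them shared no base with any oxLDL WT peak. Of the 237, 93 had a nearest gene that was also nearest to an intergenic oxLDL WT peak. Neither count was set beside the same count over all oxLDL KO peaks, so neither is shown to be particular to this class. The tallest of the 237 lay near Raet1d (7.01 in oxLDL KO), which encodes a ligand of the NK cell receptor NKG2D, and near Zfp263 (6.56), a zinc finger gene. The next were near Cox4i1 (5.88), Emb (5.43), which encodes the membrane glycoprotein embigin, and Slc38a2 (5.31), an amino acid transporter gene. Of these 5 genes, Cox4i1 was also nearest to an intergenic oxLDL WT peak, and the other 4 were not. At Cox4i1, a cytochrome c oxidase subunit gene, an oxLDL KO peak of 5.88 (chr8:120686387-120686682) had its summit 0.517 kb from the summit of an oxLDL WT peak of 2.84, and the peaks share no base.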
